A study of Mus musculus with 6 samples.

Results

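Expression of 10 genes of the Toll receptor signaling relay was measured in hypoxic cardiomyocyte cultures, namely of the LPS co-receptors Cd14 and Ly96, the TIR-domain adaptors Myd88, Tirap, Ticam1 and Ticam2, the kinases Irak2, Irak3 and Irak4, and the ubiquitin ligase Traf6. They were chosen by gene name, with earlier results of these data known, and all 10 were found among the 57010 genes of the deposited count table. The libraries came from primary cardiomyocytes of newborn C57BL/6 mice (NMCMs), a culture prepared by differential adhesion, under hypoxia (HO) with either vehicle (HO + Vehicle, V1 to V3) or the plant sterol β-sitosterol (HO + β-SITO, T4 to T6). Every library was hypoxic, and no normoxic library was analysed here. The dose and duration of β-SITO for these libraries, and how many pups or separate cultures they came from, are not given in the sources used here, so p-values measure the spread between these samples only.

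Toll receptors sense microbial molecules and products of damaged cells. CD14 passes lipopolysaccharide (LPS) to MD-2, the product of Ly96, which sits on TLR4. TIRAP then brings in MyD88, on which IRAK4 and the other IRAK kinases assemble, and TRAF6 carries the signal on to the kinases of the NF-κB and MAP kinase pathways. Another branch runs through TICAM2 (TRAM) and TICAM1 (TRIF) to interferon genes, and TICAM1 also serves TLR3. IRAK3 (IRAK-M) is best known as a brake of the MyD88 branch in macrophages.

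The libraries held 16694734 to 18460522 counts. Within the HO + β-SITO group T4 stood apart: its counts differed from those of T5 and T6 by a chi-square per degree of freedom of 8.49 and 9.001, against 1.94 between T5 and T6 and 4.58 to 7.28 among the HO + Vehicle libraries, and all pairs differed by more than sampling noise. The labelled cell type was checked on 10 cardiomyocyte markers, which summed to 5846 to 6947 CPM in the HO + Vehicle libraries and to 5168 (T4), 8732 (T5) and 8801 CPM (T6) in the HO + β-SITO libraries, with Myh6 and Actc1 the most abundant. Markers of other cells were present as well, among them Col3a1 and Col1a1 of fibroblasts, Lyz2 of macrophages and Cdh5 of endothelial cells. The 8 fibroblast markers summed to 29830 to 31110 CPM under vehicle and to 44410 to 45500 CPM under β-SITO. This was more than the cardiomyocyte markers in every library. The share of each cell type, and which cells expressed the members, were not tested. Mitochondrially encoded genes took 1.19% to 1.32% of the counts under vehicle and 1.87% to 2.26% under β-SITO, and their part in the results was not tested, apart from a fit without these genes that left the same number of members past the threshold. Only the HO + β-SITO libraries have a suffix in their names, so handling and treatment, where handling differed, cannot be told apart.

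Of the 10 genes, all of which passed the filter on low counts, 4 were lower and 1 was higher under β-SITO by over 2-fold with an adjusted p below 0.05, the threshold used throughout (quasi-likelihood test of edgeR, Benjamini-Hochberg adjusted over 14799 genes). Among all genes tested, 10.1% were lower and 12.8% were higher by that rule, 22.8% in all. Cd14, Ly96, Myd88 and Irak3 fell, Ticam2 rose, and Irak2, Tirap, Ticam1, Irak4 and Traf6 stayed within 2-fold. Without the fold threshold, 7 genes were lower and 2 higher, where 33.8% and 33.0% of all genes were (66.8% in all). The groups were fully separate for 9 of the 10 genes (7 below and 2 above the HO + Vehicle libraries), as they were for 70.5% of all genes (35.8% below and 34.8% above). The median log2 fold change was -0.52 over the 10 genes and -0.01 over all genes tested. Myd88 is also a gene that the study singled out on these libraries. The study further reported the Toll-like receptor signaling pathway from a gene set analysis of them. The changes of the 10 genes are thus no independent evidence of a direction. In these bulk libraries fewer cells of a type and less RNA per cell cannot be told apart.

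**Figure D1:**
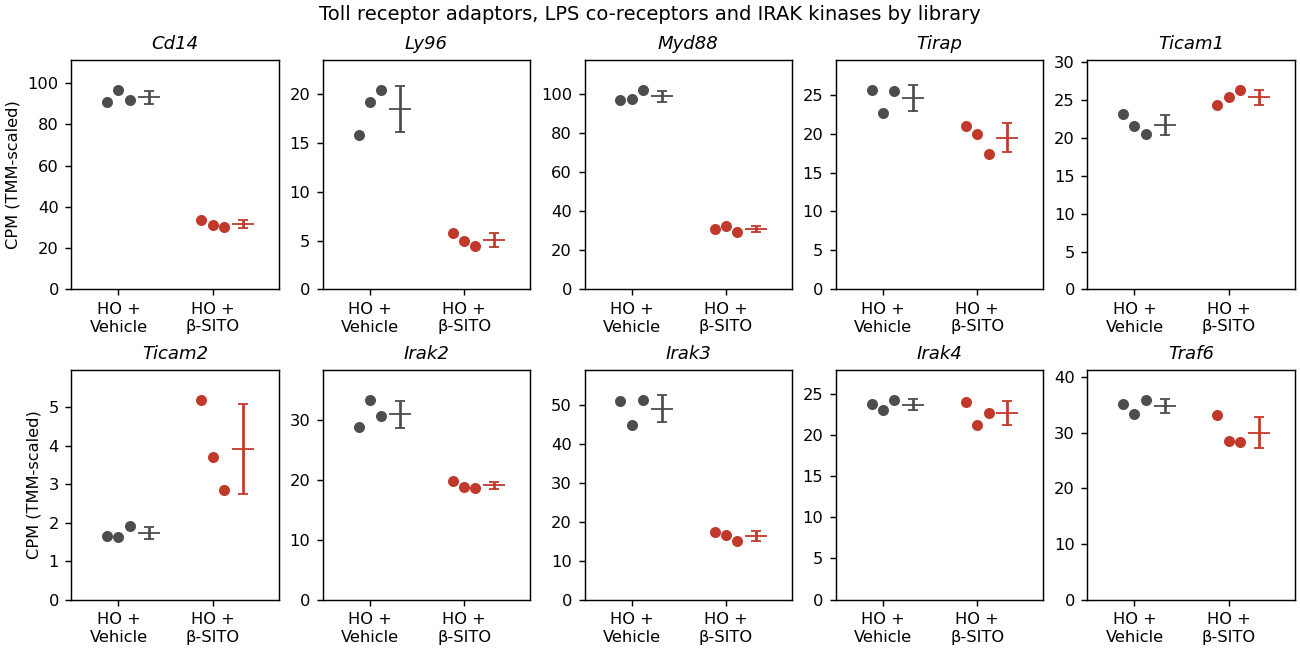
Each panel plots the CPM of 1 gene, scaled by TMM, in the 3 HO + Vehicle (grey) and 3 HO + β-SITO (red) libraries, with the mean and SD beside the points. The groups lie far apart for Cd14, Ly96, Myd88 and Irak3, and they overlap for Irak4.

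Among the members with a fold change of more than 2, Myd88 and Irak3 have a promoter in the RefSeq table used here (build GRCm38.p6), as have Irak2, Irak4, Ticam1, Tirap and Traf6, which together gives 7 of the 10 genes. Cd14, Ly96 and Ticam2 were not matched. The 250 bases before the transcription start of Myd88 are shown beside those of Irak3 (the farther upstream of its listed starts), which fell alongside it, and of Irak4, which did not pass the test. Capitals mark the only match among the 9 promoters of the 7 genes to any of the 3 motifs searched on both strands. These motifs were the interferon-stimulated response element (ISRE), spelled as GAAA, any 2 bases and GAAA again, the AP-1 site TGANTCA, and the NF-κB site. The Myd88 promoter lies on the minus strand at chr9:119340019-119340268, that of Irak3 on the minus strand at chr10:120202131-120202380 and that of Irak4 on the plus strand at chr15:94543410-94543659.
Myd88: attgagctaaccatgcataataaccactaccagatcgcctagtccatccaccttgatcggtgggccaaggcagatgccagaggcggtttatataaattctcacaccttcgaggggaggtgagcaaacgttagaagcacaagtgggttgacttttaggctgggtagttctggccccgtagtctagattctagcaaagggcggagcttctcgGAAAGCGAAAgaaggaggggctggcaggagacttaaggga
Irak3: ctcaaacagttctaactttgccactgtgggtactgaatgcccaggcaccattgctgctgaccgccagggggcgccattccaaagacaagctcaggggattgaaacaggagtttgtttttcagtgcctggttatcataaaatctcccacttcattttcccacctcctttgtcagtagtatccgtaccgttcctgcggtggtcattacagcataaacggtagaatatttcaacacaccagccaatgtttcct
Irak4: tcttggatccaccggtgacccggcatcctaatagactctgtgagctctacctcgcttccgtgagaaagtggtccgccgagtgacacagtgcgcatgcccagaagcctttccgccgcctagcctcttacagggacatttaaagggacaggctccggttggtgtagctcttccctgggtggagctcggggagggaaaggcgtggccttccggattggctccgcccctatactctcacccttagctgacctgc
The match in Myd88 is an ISRE from position -40 to -31 before the start. An ISRE of this spelling is found in 2.97% of the 32817 promoters of the same length, an AP-1 site in 6.75% and an NF-κB site in 3.90%. A match of letters is a description of the sequence and not a measured binding site.

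The co-receptors of TLR4 fell together. Cd14 (chromosome 18, 36858120 to 36859851, build GRCm39 as for all gene positions below) had 90.8, 96.7 and 92.0 CPM in V1 to V3 and 33.6, 31.3 and 30.1 CPM in T4 to T6. All HO + β-SITO libraries were thus near a common low level, well apart from the HO + Vehicle libraries. The mean fell from 93.2 ± 3.15 to 31.7 ± 1.77 CPM (SD, n = 3), by 2.94-fold. The log2 fold change of Cd14 was -1.56 ± 0.05 (edgeR, adjusted p = 1.07e-11). Here and for the other genes the SE comes from the replicate log2 CPM and not from the edgeR fit. Ly96 (chromosome 1, 16758275 to 16779835), which encodes the LPS-binding partner of TLR4, had 15.8, 19.1 and 20.4 CPM in V1 to V3 and 5.81, 4.95 and 4.42 CPM in T4 to T6. Its lowest HO + Vehicle library was still well above its highest HO + β-SITO library. The mean fell from 18.4 ± 2.38 to 5.06 ± 0.70 CPM (SD, n = 3), by 3.64-fold, the largest change of the 10 genes (log2 fold change -1.86 ± 0.16, edgeR, adjusted p = 5.05e-09). The count of Cd14 per count of Ly96 was 5.10 ± 0.62 in the HO + Vehicle group and 6.28 ± 0.51 under β-SITO (SD, n = 3; p = 0.1 by a two-sided exact permutation test, the lowest value that 3 libraries a group allow). The groups were barely apart in this ratio, with V1 at 5.74 and T4 at 5.77.

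The receptor itself moved less. Tlr4 was at 43.0 ± 7.26 CPM under vehicle and at 36.7 ± 4.51 CPM under β-SITO (SD, n = 3), its libraries overlapped, and its log2 fold change was -0.23 (edgeR, adjusted p = 0.0801). Per length (RPKM, CPM per kilobase of exon), Tlr4 made up 9.71% ± 1.43 of the summed Tlr4, Ly96 and Cd14 level in the HO + Vehicle group and 22.1% ± 1.65 under β-SITO (SD, n = 3). The summed level of the 3 genes was 79.6 ± 3.96 RPKM against 29.85 ± 2.31 RPKM (SD, n = 3). These shares lie within each library and do not depend on the scaling between libraries, unlike the sums. No library of one group reached the other in the share or in the sum (p = 0.1 for each by a two-sided exact permutation test).

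The 4 TIR adaptors did not move together. Myd88 (chromosome 9, 119165000 to 119170477), through which most Toll receptors and the receptors of the IL-1 family signal, had 96.9, 97.4 and 101.9 CPM in V1 to V3 and 30.99, 32.6 and 29.3 CPM in T4 to T6. The spread within each group was narrow beside the gap between them. The mean fell from 98.7 ± 2.76 to 30.9 ± 1.67 CPM (SD, n = 3), by 3.19-fold with a log2 fold change of -1.67 ± 0.05 (SE, edgeR, adjusted p = 3.63e-12). Tirap (chromosome 9, 35095847 to 35111587), the bridge from TLR2 and TLR4 to MyD88, had 25.6, 22.7 and 25.5 CPM in V1 to V3 and 21.0, 19.95 and 17.4 CPM in T4 to T6. Its groups lay close without overlapping. Its log2 fold change was -0.34 ± 0.10 (edgeR, adjusted p = 0.00413), a decrease of 1.26-fold that did not pass with upper quartile factors (adjusted p = 0.0707) or library size only (0.0778).

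The adaptors of the other branch went the opposite way. Ticam1 (chromosome 17, 56576319 to 56583786) had 23.1, 21.6 and 20.5 CPM in V1 to V3 and 24.4, 25.4 and 26.3 CPM in T4 to T6. All HO + β-SITO libraries were above all HO + Vehicle libraries by a small margin. Its log2 fold change was 0.22 ± 0.06 (edgeR, adjusted p = 0.0229), and it did not pass with DESeq2 (adjusted p = 0.0547), without V3 (adjusted p = 0.0850) or without T6 (adjusted p = 0.0954). Ticam2 (chromosome 18, 46690358 to 46707600), which joins TLR4 to TICAM1, was the least abundant of the 10 genes, with 26, 26 and 31 counts in V1 to V3 and 101, 66 and 55 counts in T4 to T6. In CPM this was 1.64, 1.63 and 1.92 against 5.19, 3.71 and 2.86, so T4 was the highest and the HO + β-SITO libraries were spread widely. The mean rose from 1.73 ± 0.16 to 3.92 ± 1.18 CPM (SD, n = 3), by 2.26-fold with a log2 fold change of 1.18 ± 0.26 (SE, edgeR, adjusted p = 5.05e-04). Without T4 the log2 fold change was 0.92 (adjusted p = 0.00146) and no longer past 2-fold, and a test against 2-fold with glmTreat did not pass (adjusted p = 0.455).

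Within a library the makeup of the adaptors shifted. Per length, Myd88 took 75.3% ± 1.14 of the summed level of the 4 adaptors in the HO + Vehicle group and 47.8% ± 1.08 under β-SITO (SD, n = 3). Ticam1 took 14.3% ± 1.01 and 33.8% ± 2.27, Tirap 9.80% ± 0.51 and 15.7% ± 1.10, and Ticam2 0.59% ± 0.05 and 2.69% ± 0.77, in the same order. The summed adaptor level was 50.9 ± 1.01 RPKM against 25.1 ± 0.84 RPKM (SD, n = 3). The ratio of Ticam1 counts to Myd88 counts was 0.239, 0.222 and 0.202 in V1 to V3 and 0.788, 0.778 and 0.900 in T4 to T6, a 3.72-fold difference. For each adaptor share and for the Ticam1, Tirap and Ticam2 ratios (the last to Ticam1) the groups were separate (p = 0.1 for each by a two-sided exact permutation test, and 0.1 after Benjamini-Hochberg adjustment over the 8 pairs of genes compared). Such shares are parts of the same sum, so a decrease of an abundant gene raises the other shares. The share of Tirap thus rose though its own level fell. Shares and ratios restate the changes of the single genes.

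**Figure D2:**
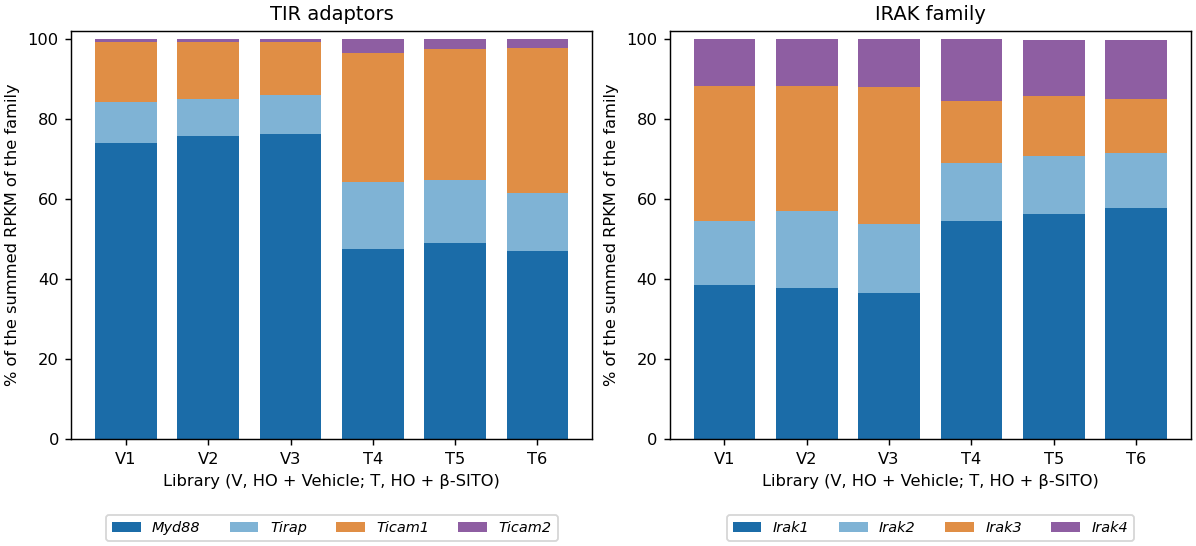
Stacked bars give, for each library, the percentage of the summed RPKM of the TIR adaptors (left) and of the IRAK family (right) that each gene takes. Myd88 takes 74.0% to 76.2% of the adaptor level in V1 to V3 and 46.9% to 49.0% in T4 to T6, and Irak3 takes 31.3% to 34.4% of the IRAK level against 13.4% to 15.4%.

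Among the kinase members Irak3 and Irak2 fell, to different degrees, and Irak4 did not pass. Irak3 (chromosome 10, 119977553 to 120038035), the restraining member of the family, had 51.1, 45.0 and 51.3 CPM in V1 to V3 and 17.5, 16.6 and 14.9 CPM in T4 to T6. Each HO + β-SITO library was far below each HO + Vehicle library. The mean fell from 49.1 ± 3.58 to 16.4 ± 1.29 CPM (SD, n = 3), by 3.01-fold with a log2 fold change of -1.59 ± 0.09 (SE, edgeR, adjusted p = 1.77e-10). Irak2 (chromosome 6, 113615428 to 113671987), which sustains signaling downstream of IRAK4, had 28.9, 33.4 and 30.7 CPM in V1 to V3 and 19.8, 18.9 and 18.6 CPM in T4 to T6. The groups were clearly apart, and the decrease of 1.62-fold stayed under the fold threshold. Its log2 fold change was -0.70 ± 0.07 (edgeR, adjusted p = 1.73e-06).

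Irak4 (chromosome 15, 94441524 to 94479696), the kinase that starts the cascade on MyD88, had 23.8, 23.0 and 24.2 CPM in V1 to V3 and 24.1, 21.2 and 22.7 CPM in T4 to T6. The groups overlapped, with T4 inside the range of the HO + Vehicle libraries. The log2 fold change was -0.06 ± 0.06, which did not pass (edgeR, adjusted p = 0.496), and the 95% interval from limma-voom ran from -0.23 to 0.10. With upper quartile factors or library size only, which moved the median of all genes to 0.14, the sign of its log2 fold change turned (0.08 in each case), still without passing. Traf6 (chromosome 2, 101508774 to 101532014), the ubiquitin ligase on which the IRAK kinases converge, had 35.1, 33.3 and 35.8 CPM in V1 to V3 and 33.2, 28.5 and 28.3 CPM in T4 to T6. T4 lay just below the lowest HO + Vehicle library. The log2 fold change of Traf6 was -0.21 ± 0.08 (edgeR, adjusted p = 0.0298), and it did not pass with DESeq2 (adjusted p = 0.0708), with upper quartile factors (0.474), with library size only (0.508) or without V1, V3, T5 or T6 (0.0660 to 0.146).

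Irak1, the remaining family member, was counted beside them and was at 71.3 ± 2.74 CPM under vehicle and 80.5 ± 1.67 CPM under β-SITO (SD, n = 3), with 0.18 as its log2 fold change (edgeR, adjusted p = 0.0158). Per length, Irak3 took 33.2% ± 1.69 of the summed IRAK level in the HO + Vehicle group and 14.65% ± 1.07 in the HO + β-SITO group, and Irak1 took 37.6% ± 1.03 and 56.3% ± 1.56 (SD, n = 3). The shares of Irak2 (17.5% ± 1.69 and 14.25% ± 0.31) and Irak4 (11.7% ± 0.17 and 14.85% ± 0.69) moved less. There were 2.07 ± 0.10 counts of Irak3 per count of Irak4 in the HO + Vehicle group and 0.72 ± 0.06 in the HO + β-SITO group, and 1.31 ± 0.12 and 0.84 ± 0.04 counts of Irak2 per count of Irak4 (SD, n = 3). The groups did not overlap for any of these shares and ratios (p = 0.1 for each by a two-sided exact permutation test).

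**Figure D3:**
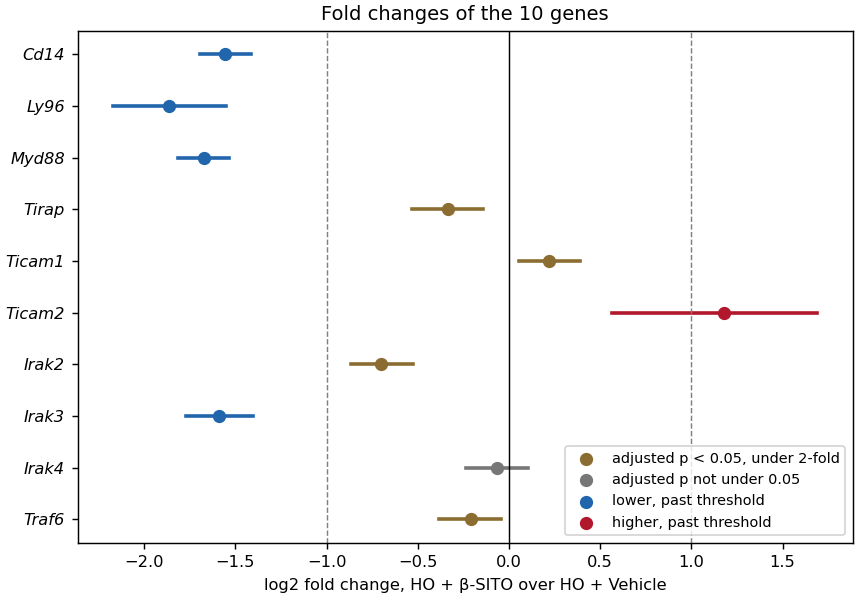
Points are log2 fold changes from edgeR for the 10 genes and bars are the 95% intervals from limma-voom, with dashed lines at 2-fold. Cd14, Ly96, Myd88 and Irak3 lie between -1.86 and -1.56, apart from Irak2 at -0.70, and the interval of Ticam2 (0.56 to 1.69) includes 2-fold.

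The order of the levels changed between the groups. In the HO + Vehicle group Cd14 was the most abundant per length at 53.8 ± 1.82 RPKM, followed by Myd88 (38.3 ± 1.07), Ly96 (18.05 ± 2.33), Irak3 (13.4 ± 0.97), Ticam1 (7.27 ± 0.44), Irak2 (7.02 ± 0.51), Tirap (4.99 ± 0.33), Irak4 (4.72 ± 0.12), Traf6 (4.405 ± 0.17) and Ticam2 (0.30 ± 0.03; SD, n = 3 for each). Of the neighbours in this order, Ticam1 and Irak2 overlapped, as did Tirap and Irak4. In the HO + β-SITO group Cd14 (18.3 ± 1.02 RPKM) and Myd88 (12.01 ± 0.65) still led, and Ticam1 (8.48 ± 0.32) came next, ahead of Ly96 (4.955 ± 0.68; SD, n = 3 for each). Ly96, Irak4, Irak3, Irak2, Tirap and Traf6 then lay between 3.80 and 4.955 RPKM, and each of these overlapped with the next in order. The 3 IRAK genes, which were spread from 4.72 to 13.4 RPKM in the HO + Vehicle group, were thus within 4.33 to 4.51 RPKM in the HO + β-SITO group.

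Cd14 and Irak3 are genes of myeloid cells in particular, and markers of such cells were counted beside them. The 10 macrophage markers summed to 1229 to 1349 CPM in the HO + Vehicle libraries and to 2652 to 3253 CPM in the HO + β-SITO libraries. Past the threshold 6 of 10 were higher and 1 lower, where 12.8% and 10.1% of all genes tested were. The median log2 fold change of these markers was 1.24. Lyz2 (log2 fold change 1.12) was the most abundant of them in each group. Mrc1 (4.79) came next by the mean over all libraries, a rank set by its own change, since its level was the lowest of the 10 under vehicle (11.8 CPM) and the second highest under β-SITO (325 CPM). By contrast, Ptprc (-0.03) and Adgre1 (-0.06) did not pass and Fcgr1 (-2.18) was the one that fell. The 7 endothelial markers summed to 192.3 to 220.3 CPM against 766.9 to 796.9 CPM. All 7 were higher past the threshold, where 12.8% of all genes tested were (median 1.91, with Cdh5 at 1.84 and Pecam1 at 1.84). Of the 8 fibroblast markers 2 were lower and 5 higher at an adjusted p under 0.05, where 33.8% and 33.0% of all genes tested were. Each of these markers changed by less than 2-fold (median 0.50, with Col3a1 at 0.85 and Col1a1 at 0.42). Their sum was 29830 to 31110 CPM against 44410 to 45500 CPM. Smooth muscle markers summed to 557.6 to 600.7 CPM against 1081 to 1278 CPM, with 3 of 5 higher (median 1.30, Acta2 at 0.99 and Rgs5 at 1.30), and 2 of the 10 cardiomyocyte markers were higher (median 0.12, Myh6 at 0.53 and Actc1 at 0.00). The neutrophil markers Ly6g and Retnlg and the lymphocyte markers Cd3e and Cd3g were at 0 in every library. Not all lymphocyte markers were at 0. The 6 listed summed to 0.31 to 0.44 CPM under vehicle and to 0 to 0.26 CPM under β-SITO, too low to be tested. The other neutrophil markers summed to 14.8 to 16.4 CPM under vehicle and to 3.65 to 5.55 CPM under β-SITO. Csf3r (log2 fold change -2.08) was the most abundant of them at 14.6 and 3.42 CPM on average, while S100a9, the next, had 0.38 and 0.45 CPM and was too low to be tested. The part of cell composition in the changes of the 10 genes was not tested.

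Several of the genes overlap others in the table, and the strand setting of the counting is not given in the sources used here. Myd88 shares 290 of its 2576 exon bases (11.3%) with Acaa1a on the opposite strand, whose log2 fold change was -1.29, and Irak3 shares 5.22% with Tmbim4 (-1.15). Irak4 shares 7.87% with Twf1 (-0.23) and Tirap 0.79% with Srpr (-1.03), both on the opposite strand. Ticam2 shares 838 of 5792 exon bases (14.5%) with Tmed7 on the same strand, which had 2829 to 3240 counts per library, far more than Ticam2, and a log2 fold change of -0.35. Reads in those bases cannot be told apart without strand, or at all for Ticam2, so the low counts of Ticam2 are the least certain of the 10.

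The rest of the pathway was described from lists written with earlier results of these data known. Beside the counts below, 10.1% of all genes tested were lower and 12.8% higher past the threshold. Of 17 tested Toll receptors and accessory proteins, 7 were lower and 2 higher (median log2 fold change -0.61), the higher ones near the share of all genes. Tlr2, the receptor of bacterial lipoproteins, had a log2 fold change of -5.02, and Tlr3, which senses double-stranded RNA and signals through TICAM1, had -4.12. Lbp, which delivers LPS to CD14, had -2.51, while Tlr13 (2.11) and Tlr5 (1.97) rose. Tlr5 had only 12, 9 and 11 counts in V1 to V3 and 58, 41 and 50 in T4 to T6, so the size of its change is uncertain. For the IL-1 family receptors, which share MyD88, 2 of 3 tested genes were lower (median -1.50), Il1rap at -1.81 and Il1rl2 at -1.50.

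Downstream of the adaptors, 11 of 26 tested genes were lower and 1 was higher (median -0.76). Irf7, an interferon regulatory factor that binds MyD88, had the lowest log2 fold change at -6.85, followed by Ikbke (-2.82), a kinase of the TICAM1 branch, and Tifa (-1.85), a TRAF6-binding adaptor. Traf3, which serves that same branch, fell by 1.13 on the log2 scale, and Peli2, an E3 ligase of the Pellino family, rose (2.26). Of 16 tested inhibitors, 8 were lower and 4 higher (median -0.95). Il1rn, the IL-1 receptor antagonist, had -5.86, the deubiquitinase gene Tnfaip3 had -4.36 and Tnip1, its partner, had -3.52. Pdlim2 (2.61), Inpp5d (1.93) and Sigirr (1.10) rose, and Tollip (-0.03, adjusted p = 0.674 by edgeR) did not pass. Sigirr was low, with 16, 9 and 23 counts in V1 to V3 and 35, 39 and 48 in T4 to T6. Without V2 only Pdlim2 and Inpp5d of the 4 higher inhibitors stayed past the threshold. All 14 tested target genes were lower, with a median of -8.30, or -8.00 when Il12b, whose HO + β-SITO libraries held no more than 1 count each, was set at its bound of at least 209.6-fold. The lowest of the others were Ccl5 (-12.16) and Il1b (-10.65). In T4 to T6 Ccl5 had 8, 6 and 7 counts and Il1b had 4, 1 and 2. Counts this low leave the size of both changes uncertain. The part of any of these genes in the others' levels was not tested.

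**Figure D4:**
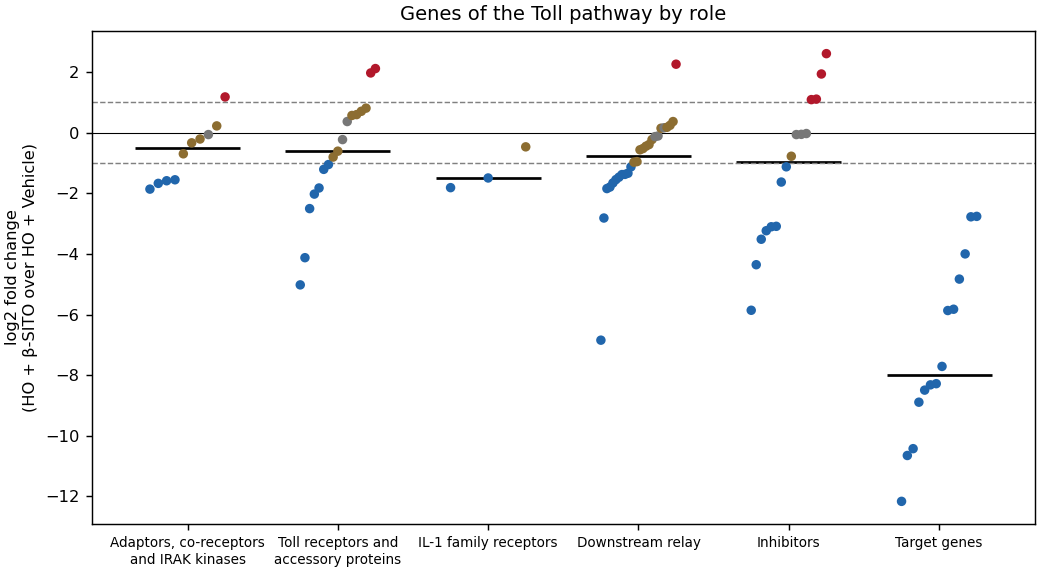
Each point is the log2 fold change of 1 tested gene, grouped by role, with bars at the group median and dashed lines at 2-fold (blue lower, red higher, brown under 2-fold, grey not passed). Medians run from -0.52 for the adaptors, co-receptors and IRAK kinases to -8.00 for the target genes, where Il12b is drawn at its bound.

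Genes whose pattern over the 6 libraries was closest to a member were found by the distance between centred log2 CPM values, for the members with the largest and the smallest change. Closest to Ly96 were Tifa (distance 0.22 on the log2 scale), Txn1 (0.24) and Ccdc25 (0.24), with log2 fold changes of -1.85, -1.79 and -1.97. Closest to Irak4 were Cct2 (0.03), Terf2 (0.03) and Pa2g4 (0.05), with log2 fold changes of -0.06, -0.05 and -0.08, which did not pass. Since the distance was taken over the same 6 libraries, fold changes near that of the member follow from the selection.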

How the data were processed

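RNA-seq was performed on 6 libraries, 3 per group, which were grouped by the treatment in the sample labels. The authors deposited raw counts per gene for all libraries, without normalization. The submitters' processing notes name FastQC, HISAT2, featureCounts and GRCm39, and the strand setting and the rule for reads in overlapping genes are not given in the sources used here. From the deposited counts, CPM scaled by TMM were computed after filterByExpr (14799 of 57010 genes), and groups were tested with the quasi-likelihood method of edgeR, with group as the only term. Versions were R 4.3.3, edgeR 4.0.16, limma 3.58.1 and DESeq2 1.42.0. The study used DESeq2, which was run as an alternative. RPKM used exon lengths from GENCODE vM21, matched by gene identifier. SE of log2 fold changes were computed from the log2 CPM of the replicates and are not those of the edgeR fit. Log2 ratios of gene pairs were computed with 0.5 added to each count. A count floor of 3 per library gave the bounds. Intervals reflect the spread of these libraries only. On simulated counts with 200 genes changed, the fit was checked for recovery of known changes. In the data 66.8% of tested genes had an adjusted p below 0.05 by edgeR. The check does not cover change that wide. Alternatives were other tests (DESeq2, limma-voom, glmTreat), normalizations, filters, removal of mitochondrially encoded genes and removal of each library.

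The members and lists were chosen with earlier results of these data known, and the family shares per length were added after the values had been seen. Genes named beside the members are, from each pathway list, at most 3 past the threshold in each direction with the largest change, plus Tlr4, Tlr3, Tlr2, Irak1, Traf3 and Tollip, and from each marker list the 2 most abundant by mean CPM over all libraries, except for lymphocytes, where these are not reported here and 2 genes at 0 were named after their values had been seen, as were Ly6g and Retnlg. Further markers and the overlapping genes are named because a result turns on them, and the neighbours in likeness are those with the smallest distance. Proteins were not analysed here.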

Additional observations from a re-analysis of the deposited data

How the results depend on the processing

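Cd14, Ly96, Myd88 and Irak3 stayed past the threshold in all 15 alternatives run, with log2 fold changes of -1.60 to -1.41, -1.98 to -1.72, -1.70 to -1.53 and -1.65 to -1.44. Irak2 stayed lower by less than 2-fold (-0.75 to -0.55). With glmTreat 0 members were higher (0 at an unadjusted p under 0.05; 1 with edgeR's main test, DESeq2 and limma-voom), since Ticam2 did not pass (log2 fold change 1.18), and 2 inhibitors were higher. Without T4 Ticam2 was not past 2-fold (0.92), and leaving out single libraries gave 0 to 1 higher members and 2 to 4 higher inhibitors. Upper quartile factors and library size only turned the sign of Irak4 (0.080 and 0.085), and Tirap then did not pass (adjusted p = 0.0707 and 0.0778); these scalings moved the median of all genes to 0.14, relative to which Irak4 was at -0.06. Without the fold threshold 7 members were lower and 2 higher, 5007 and 4885 of all genes, 6 Toll receptors and accessory proteins higher, and 18 and 5 downstream genes lower and higher. Without a filter 1 IL-1 family receptor was higher. Leaving out single libraries gave 1475 to 1514 lower and 1856 to 1953 higher genes in all. No paired analysis was possible because the groups share no replicate number. At 26 to 101 counts a library, depth limits Ticam2 most.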
